A study of Mus musculus with 36 samples.

Results

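Brain RNA of mice with untreated experimental autoimmune encephalomyelitis (EAE, 9 libraries) was compared with that of naive mice (8 libraries), using 17 of the 36 RNA sequencing libraries of the series. The members were chosen by group label alone: all libraries of mice with EAE that received no gavage, and all libraries of healthy mice. All mice were wild-type C57BL/6. For EAE, mice were immunized under the skin with a peptide of myelin oligodendrocyte glycoprotein (MOG) emulsified in complete Freund's adjuvant; pertussis toxin was also given, and brains were taken on day 19. The naive group received no immunization, and no group received adjuvant and toxin without the peptide, so the disease and its induction cannot be told apart. Age and sex are not given in the labels. The other EAE libraries come from mice gavaged with corn oil (vehicle, n = 9) or with farnesol in corn oil (n = 10). They are used here only where a value of the untreated mice is set beside theirs.

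EAE is a model of multiple sclerosis in which T cells primed against myelin enter the central nervous system and recruit monocytes and neutrophils. Most lesions of this model in C57BL/6 mice lie in the spinal cord, and the brain is reached through the meninges, the choroid plexus and the venules of the white matter. Cytokines released there act on receptors of endothelium, astrocytes and microglia, largely through STAT and NF-kB transcription factors. In whole-brain RNA, a lower level of a gene can come from fewer cells of a type or from less RNA per cell, and these cannot be told apart.

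Totals per library ran from 14.71 M to 24.21 M counts in untreated EAE (median 20.36 M) and from 14.71 M to 23.01 M in naive brain (median 19.65 M). Levels are given as CPM (counts scaled to a library of 1e6 counts) after TMM scaling, and a gene rose or fell where edgeR's quasi-likelihood test gave a Benjamini-Hochberg adjusted p below 0.05 over the 18438 genes tested. Changes are log2 differences, untreated minus naive, ± SE. The libraries carried brain markers throughout: the summed level of the 12 neuron markers was 7245 to 8726 CPM in untreated and 8455 to 9255 CPM in naive libraries. Summed markers of neutrophils and monocytes did not overlap between the groups, and those of lymphocytes did. The 12 neutrophil markers summed to 40.4 to 149 CPM against 9.04 to 12.5 CPM, and the 12 monocyte markers to 116 to 195 CPM against 93.6 to 106 CPM. The summed level of the 13 T cell markers overlapped between the groups, at 13.2 to 34.6 CPM against 11.8 to 18 CPM. Their mean log2 level did not overlap, at 0.31 to 1.5 in untreated and 0 to 0.2 in naive libraries. Of these 13 genes 9 rose (69.2%, against 13.6% of all genes) and 0 fell. The 8 B cell markers summed to 21.9 to 64.6 CPM against 23.4 to 28.4 CPM. Their mean log2 level overlapped as well, at 0.4 to 1.83 against 0.08 to 0.67. Of these 8 genes 4 rose (50%) and 0 fell. The part of these cells in the changes below was not tested.

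Every untreated library was low in the ribosomal RNA gene CT010467.1 (1306 to 2486 counts per 1e6, before TMM scaling) and every naive library high (7047 to 10177), so this difference in library composition cannot be told apart from disease. With a term for it, which only the farnesol libraries can estimate, 175 genes passed in place of 4586. Another 7 libraries, from farnesol-gavaged EAE, were chosen because this gene was above 4000 in them. They ran from 5157 to 17624 on the same scale, a wider range than the naive one at both ends, and their values against naive brain are set beside the untreated ones below. In that comparison 4872 of 17283 genes passed (28.2%), and both comparisons share the 8 naive libraries. These 7 libraries are called the high-rRNA farnesol libraries. In 5 untreated libraries the level of Sbp, a spermine-binding protein of the prostate, was above 1 CPM. It reached at most 0.0513 CPM in naive brain. All 17 libraries held Xist and at most 3 counts of Y-linked genes. Xist was at 551 to 648 CPM in untreated EAE and 338 to 535 CPM in naive brain. It rose by 0.44, and the groups did not overlap. Untreated replicate 3 and naive replicate 4 were low in cerebellar genes.

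Differences between untreated EAE and naive brain were broad, and rises and falls differed in size and abundance. Of 18438 genes tested, 4586 changed (24.9%), of which 2505 rose (13.6%) and 2081 fell (11.3%). The median change over all genes tested was -0.006. Rises were larger than falls: the median rise was 0.50 and the median fall -0.20, and 620 genes rose by more than 2-fold while 50 fell by as much. Of the falls, 1641 were smaller than 1.25-fold, as were 774 of the rises. All untreated libraries lay above all naive ones in 483 risen genes (2.62% of those tested), and all lay below in 185 fallen genes (1.00%).

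Falls gathered among abundant genes. Above 100 CPM, 764 of 2393 genes fell (31.9%) and 146 rose (6.1%), with a median fall of -0.17. Between 10 and 100 CPM, 12.4% fell and 14.2% rose, and between 1 and 10 CPM 4.6% fell and 18.2% rose. Below 1 CPM, 2.5% fell and 10.0% rose, with a median rise of 1.60. The share of counts held by the 100 most abundant genes was 15.9% to 17.3% in untreated and 17.4% to 18.9% in naive libraries, and the groups did not overlap (two-sided exact permutation test over 24310 arrangements, p = 8.23e-05, adjusted p = 0.000329 over 8 classes). The counts of abundant gene groups below are therefore read against 31.9% as well as against 11.3%. Of 1951 long noncoding RNAs 183 rose (9.38%) and 68 fell (3.49%), and of 15322 protein-coding genes 2224 rose (14.5%) and 1935 fell (12.6%).

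**Figure D1:**
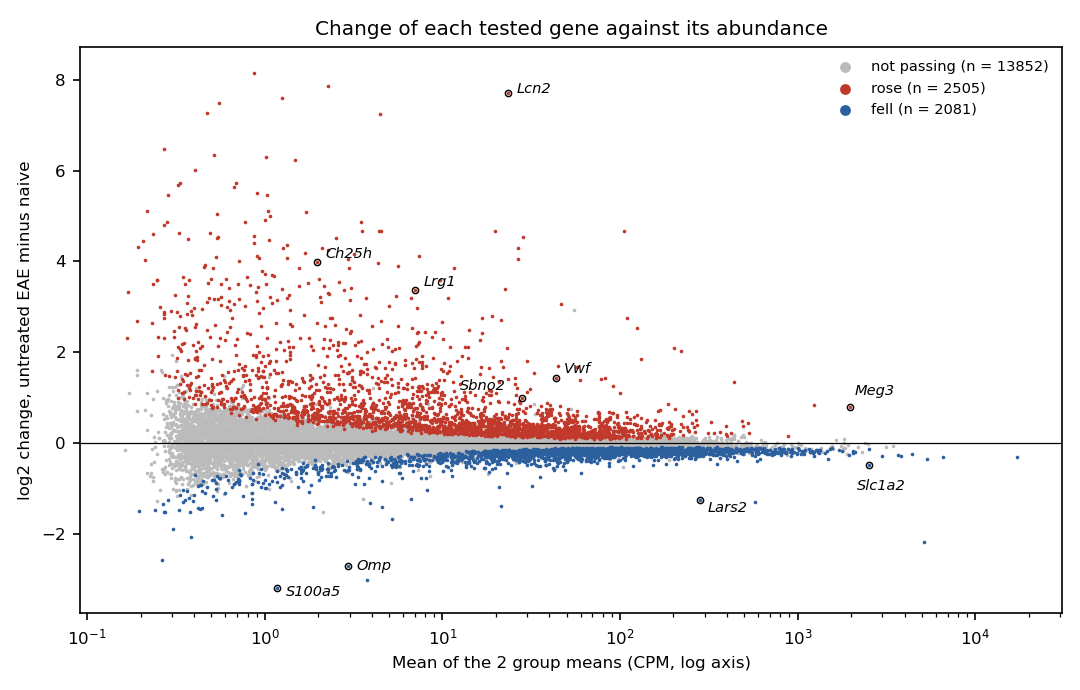
Each point is 1 of 18438 tested genes, by the mean of its 2 group means in CPM (log axis) and its log2 change in untreated EAE against naive brain; red points rose, blue points fell and grey points did not pass. The 620 rises above 2-fold lie mostly at low abundance, and the 2081 falls crowd just below 0 on the right.

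The size of the rises differed between libraries. Among the 477 risen genes above 2-fold with at least 1 CPM, the highest untreated library stood at a median of 4.07 times the lowest. The ratio was below 3 in 119 of them and above 10 in 44. Untreated replicate 9 reached furthest, above every naive library in 92.2% of risen genes and below every naive library in 86.4% of fallen genes. Replicate 8 reached least, with 63.0% and 53.8%. Without replicate 9 the count of changed genes was 3688.

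**Figure D2:**
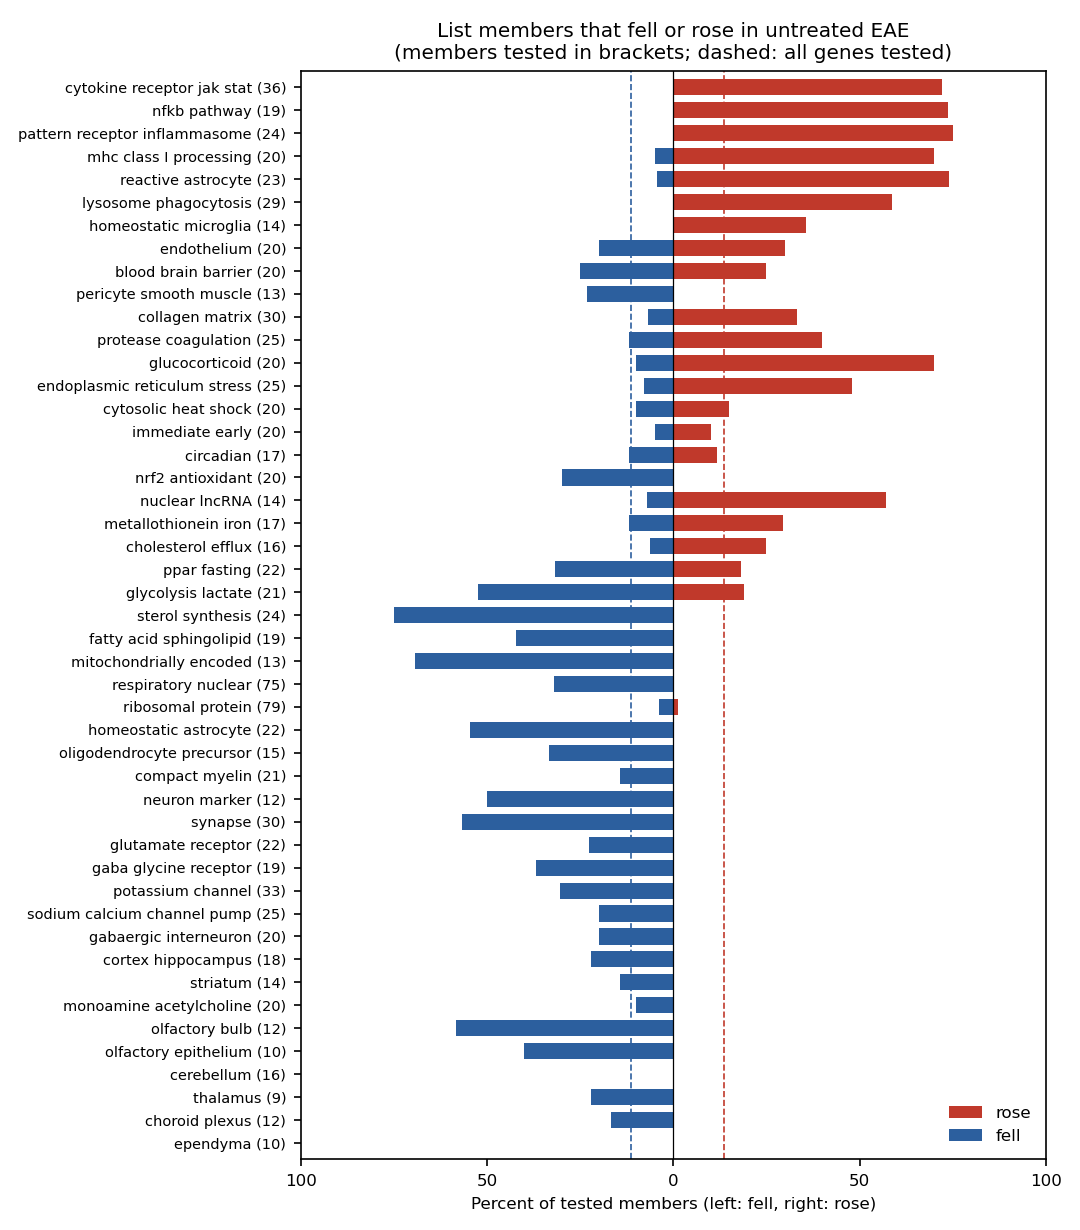
Bars give, for each gene list, the percent of tested members that fell (left, blue) or rose (right, red) in untreated EAE, with the number tested in brackets; dashed lines mark 11.3% and 13.6%, the shares over all genes. Cytokine receptor, NF-kB and pattern receptor lists extend only to the right, and sterol synthesis, synapse and homeostatic astrocyte lists only to the left.

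The rises of smallest p included genes with little spread between libraries. Lrg1, which encodes a secreted leucine-rich glycoprotein made by endothelium and liver in inflammation (chr17:56119678-56122001, minus strand, GRCm38), was at 7.44 to 19.8 CPM (median 12.2) in untreated EAE and 0.689 to 1.63 CPM (median 1.3) in naive brain. The groups did not overlap, and Lrg1 rose by 3.37 ± 0.22 (adjusted p = 1.48e-13, edgeR). Ch25h, the enzyme that makes 25-hydroxycholesterol (chr19:34473778-34475164, minus strand), was at 1.66 to 7.04 CPM (median 3.24) in untreated EAE and 0.0921 to 0.41 CPM (median 0.217) in naive brain. Every untreated library lay above every naive one (3.98 ± 0.36, adjusted p = 9.69e-10). Sbno2, a transcriptional coregulator downstream of STAT3 (chr10:80056992-80105571, minus strand), rose by only 0.99 ± 0.09 (adjusted p = 4.85e-10), from 15.5 to 20.7 CPM (median 19.2) in naive brain to 32.5 to 45.5 CPM (median 36.7). Its groups were also apart.

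Vessel and lipid genes were among the same rises. Vwf, the von Willebrand factor of endothelial storage granules (chr6:125546774-125686679, plus strand), was at 36.1 to 76.7 CPM (median 70.6) in untreated EAE and 18.7 to 27.9 CPM (median 23.4) in naive brain, and rose by 1.45 ± 0.14 (adjusted p = 4.88e-09). No untreated library fell within the naive range. Acer2, an alkaline ceramidase of the Golgi that turns ceramide into sphingosine (chr4:86874396-86934822, plus strand), was at 16 to 24.5 CPM (median 18.6) in untreated EAE and 7.96 to 10.9 CPM (median 8.75) in naive brain and rose by 1.13 ± 0.11 (adjusted p = 9.38e-09). C1s1, a serine protease of the first complement component, rose by 3.19 ± 0.30, and Zgpat, a zinc finger protein, by 0.67 ± 0.07, both without overlap. With the term for library composition all of these 7 genes still passed, at 3.43 for Lrg1, 3.63 for Ch25h, 0.89 for Sbno2, 1.34 for Vwf, 1.11 for Acer2, 3.03 for C1s1 and 0.57 for Zgpat. Against vehicle-gavaged EAE none of the 7 passed, with adjusted p from 0.95 for Vwf to 0.999 for Acer2.

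**Figure D3:**
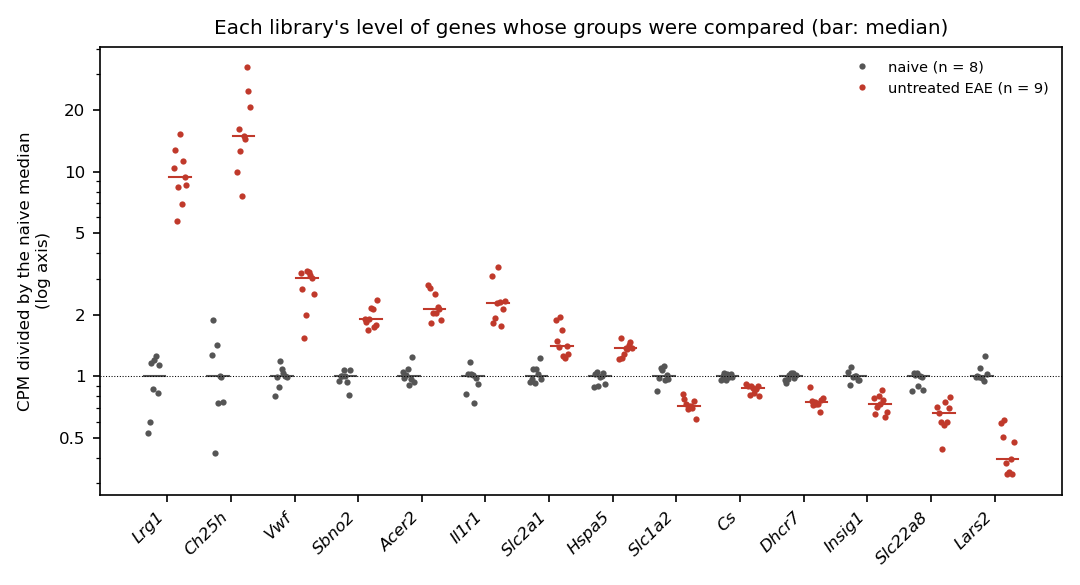
Points are single libraries (grey naive, n = 8; red untreated EAE, n = 9), each divided by the naive median of its gene on a log axis, and bars are group medians. Lrg1, Ch25h, Vwf, Sbno2 and Acer2 are apart upward by different factors, while Slc1a2, Cs, Dhcr7 and Insig1 are apart downward by less than 2-fold.

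Among genes of cytokine signalling, rises outnumbered falls. Of 36 tested genes for cytokine receptors, Janus kinases, STAT factors and their SOCS inhibitors, 26 rose (72.2%, against 13.6% of all genes) and 0 fell, with a median change of 0.60; 12 had groups that did not overlap. Il1r1, the signalling receptor of interleukin 1 (chr1:40225080-40317257, plus strand), was at 9.32 to 18.2 CPM (median 12.1) in untreated EAE and 3.92 to 6.21 CPM (median 5.31) in naive brain. Untreated libraries were all higher, and the rise was 1.28 ± 0.14 (adjusted p = 5.38e-08). Osmr, the oncostatin M receptor subunit, rose by 1.21 ± 0.18, and Csf2rb, the shared beta subunit for GM-CSF, interleukin 3 and interleukin 5, by 3.01 ± 0.44. Jak3, the kinase paired with the common gamma chain of lymphocyte cytokine receptors, rose by 1.34 ± 0.16. Il6ra, the ligand-binding receptor of interleukin 6, rose by 0.84 ± 0.12, and its groups overlapped. In the 7 high-rRNA farnesol libraries, 22 of 35 members rose and 1 fell.

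The NF-kB pathway, which drives and then limits inflammatory transcription, showed 14 of 19 members risen and 0 fallen (median 0.53). Its feedback inhibitors were among them: Nfkbia, the inhibitor that holds NF-kB in the cytoplasm, was at 29.3 to 45.9 CPM (median 33.4) in untreated EAE and 17.2 to 20.8 CPM (median 18.5) in naive brain, with no overlap (0.93 ± 0.12, adjusted p = 9.89e-07). Nfkbiz, a nuclear cofactor of the same family, rose by 0.99 ± 0.11, and Bcl3, another nuclear partner of the p50 and p52 subunits, by 2.57 ± 0.41. The kinase genes Ikbke and Ikbkb rose by 1.54 and 0.30, and Birc3, a ubiquitin ligase acting after tumour necrosis factor receptors, by 1.18. Set beside this, 12 of 19 members rose in the high-rRNA farnesol libraries.

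Promoters of the risen NF-kB genes were searched for a core NF-kB site, GGANTTTCC, on both strands, from 250 bases before to 50 bases after the RefSeq start (GRCm38.p6). It was found in 3 of the 10 risen members with a promoter in the table (30%) and in 333 of all 27025 promoters (1.23%). The 3 windows are shown because each gene limits or reports NF-kB activity; capitals mark the match.
Nfkbia, chr12:55492648-55492865, minus strand: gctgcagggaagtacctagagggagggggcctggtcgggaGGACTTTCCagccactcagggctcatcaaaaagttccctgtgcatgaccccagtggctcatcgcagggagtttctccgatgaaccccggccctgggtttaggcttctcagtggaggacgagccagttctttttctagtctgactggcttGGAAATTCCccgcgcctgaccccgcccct
Tnfaip3, chr10:19015411-19015474, minus strand: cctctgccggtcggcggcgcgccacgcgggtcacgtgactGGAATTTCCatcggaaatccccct
Tnfaip2, chr12:111442534-111442622, plus strand: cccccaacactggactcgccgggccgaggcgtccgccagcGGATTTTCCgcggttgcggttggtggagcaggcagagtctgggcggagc
Tnfaip3, the ubiquitin-editing enzyme A20 that ends NF-kB signalling, rose by 0.53 ± 0.18, and Tnfaip2, a cytokine-induced protein of endothelium and myeloid cells, by 1.11 ± 0.37. A match is a description of the letters and not a bound site.

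Sensors of microbes and damage rose in 18 of 24 cases, with 0 fallen and a median of 0.99. Casp4, the caspase that senses cytosolic lipopolysaccharide, was at 0.629 to 3.15 CPM (median 1.73) in untreated EAE and 0 to 0.414 CPM (median 0.208) in naive brain (2.98 ± 0.47, adjusted p = 1.75e-05). Gsdmd, the pore former it cleaves, rose by 1.67 ± 0.31. The endosomal receptors Tlr13 and Tlr7, which detect bacterial ribosomal RNA and single-stranded RNA, rose by 1.46 and 1.43. Il1b, the cytokine that these platforms release, was at 0.331 to 3.73 CPM (median 2.11) in untreated EAE and 0 to 0.368 CPM (median 0.109) in naive brain, so that its lowest untreated library lay within the naive range. Mefv, the pyrin gene of myeloid cells, was near 0 in naive brain, at 0 to 0.0545 CPM (median 0), and at 0 to 0.97 CPM (median 0.589) in untreated EAE. Neutrophil and monocyte markers were also higher in untreated EAE, as given above, and their part in these rises was not tested.

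Class I antigen presentation, by which any nucleated cell shows peptides to CD8 T cells, rose in 14 of 20 members (median 1.41), and 12 had groups that did not overlap. Nlrc5, the transactivator of class I genes, rose by 4.12 ± 0.69 from 0.502 to 1.08 CPM (median 0.794) to 4.06 to 36.2 CPM (median 13.7). B2m, the light chain, was at 124 to 615 CPM (median 319.8) in untreated EAE and 82.6 to 91.5 CPM (median 85.6) in naive brain. The heavy chains H2-K1 and H2-D1 rose by 2.54 and 2.10; class I genes are near-identical copies, so their split of reads is uncertain. The only fallen member was Psmb7, the constitutive proteasome subunit that an inducible one replaces in the immunoproteasome (-0.16 ± 0.06).

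Lysosomal and phagocytic genes rose in 17 of 29 cases with 0 fallen (median 0.45). Ctss, a cysteine protease of microglia and macrophages that trims the class II invariant chain, was at 85.2 to 353 CPM (median 188) in untreated EAE and 52.6 to 65.2 CPM (median 56) in naive brain (1.85 ± 0.36). Tyrobp, the adaptor of TREM2 and other activating receptors, was at 9.8 to 28.3 CPM (median 16.1) in untreated EAE and 7.04 to 9.44 CPM (median 8.37) in naive brain. Lgals3, a galectin low in resting microglia, rose by 2.43 ± 0.43, and Lyz2, lysozyme of myeloid cells, by 3.07 ± 0.48. Of genes that mark microglia of the healthy brain 5 of 14 rose and 0 fell (median 0.28), among them Tmem119 (0.66 ± 0.20) and Csf1r (0.63 ± 0.21). Siglech, also among these markers, was at 10.7 to 24.7 CPM (median 19.9) in untreated EAE and 11.1 to 14.2 CPM (median 13.5) in naive brain. It did not pass (adjusted p = 0.0565). Siglech passed as a rise with minimum count 30, by DESeq2 and with only the untreated and naive libraries. It also passed without the untreated libraries holding Sbp (0.73, adjusted p = 0.00194) and without those low in cerebellar genes. Of the same markers 4 rose and 4 fell in the high-rRNA farnesol libraries. Without the 5 untreated libraries holding Sbp, 8 rose and 1 fell, and without untreated replicate 7 or 9 alone 3 rose.

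Endothelial genes changed in both directions. Of 20 endothelial markers 6 rose and 4 fell (median 0.17), and without the Sbp-holding libraries 7 rose and 2 fell. Besides Vwf, the surface antigens Ly6a and Ly6c1 rose by 1.12 ± 0.17 and 0.60 ± 0.10, and the adhesion receptor gene Adgrl4 by 0.43 ± 0.08. Aplnr, the apelin receptor of venous and sprouting endothelium (chr2:85136225-85139923, plus strand), was at 0.14 to 1.05 CPM (median 0.497) in untreated EAE and 0.482 to 2.17 CPM (median 1.19) in naive brain and fell (-1.22 ± 0.35, adjusted p = 0.00875). The groups overlapped for Aplnr. Tek, the angiopoietin receptor that keeps endothelium quiescent, fell by 0.46 ± 0.09. The other fallen members were Apln, the apelin ligand (-0.35), and Kdr, the main receptor for VEGF (-0.41). Neither Aplnr (-0.81, adjusted p = 0.178) nor Kdr (-0.08, adjusted p = 0.773) passed without the Sbp-holding libraries, and Kdr did not pass without 1 library in 8 of 17 cases. Vegfa itself, an endothelial growth and permeability factor made by astrocytes and other cells, was at 81.2 to 117 CPM (median 102) in untreated EAE and 64.9 to 76.6 CPM (median 71.2) in naive brain and rose without overlap (0.52 ± 0.06, adjusted p = 4.72e-07).

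Transport genes of the blood-brain barrier split evenly, with 5 of 20 risen and 5 fallen. Slc2a1, the glucose carrier GLUT1, was at 127 to 203 CPM (median 146) in untreated EAE and 95.7 to 127 CPM (median 104) in naive brain and rose by 0.55 ± 0.09 (adjusted p = 4.12e-05). Slc38a5, a glutamine and serine carrier, rose by 0.80 ± 0.15, and Lsr and Esam, proteins of cell junctions, by 0.55 and 0.23. Slc22a8, the organic anion carrier OAT3 (chr19:8591254-8611835, plus strand), was at 10.5 to 18.8 CPM (median 15.8) in untreated EAE and 20.2 to 24.6 CPM (median 23.8) in naive brain, with every untreated library below every naive one (-0.57 ± 0.09, adjusted p = 2.23e-05). Slco1c1, which carries thyroxine, fell by 0.28 ± 0.06. The tight junction genes Cldn5, Ocln and Tjp1 did not pass; Cldn5, claudin 5, was at 40.9 to 63.4 CPM (median 47.9) in untreated EAE and 40.9 to 51.7 CPM (median 49.6) in naive brain (adjusted p = 0.927). Without the Sbp-holding libraries 4 members rose and 1 fell, and 3 fell without naive replicate 5 or without untreated replicate 1, 2, 4 or 5.

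Of the mural cell markers 3 of 13 fell and 0 rose (median -0.17). Vtn, vitronectin, a product of brain pericytes, was at 69 to 82.3 CPM (median 74.9) in untreated EAE and 85 to 102 CPM (median 97.9) in naive brain, without overlap (-0.33 ± 0.06). Pdgfrb, the receptor that recruits pericytes to vessels, changed by -0.30 ± 0.07 and Rgs5, a pericyte regulator of G protein signalling, by -0.17 ± 0.06. Heyl, a Notch target of mural cells, was among the 10 falls of smallest p (-0.76 ± 0.11, adjusted p = 4.27e-06), at 4.08 to 7.89 CPM (median 5.73) in untreated EAE and 6.1 to 13.3 CPM (median 10.5) in naive brain.

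Basement membrane and matrix genes rose in 10 of 30 cases and fell in 2 (median 0.18). Col4a1 and Col4a2, the paired collagen chains of vascular basement membranes, rose by 0.51 ± 0.07 and 0.54 ± 0.09, each without overlap. Hspg2, the heparan sulfate proteoglycan perlecan of the same membranes, rose by 0.46 ± 0.11. Col5a1, a fibrillar collagen chain, was at 15.4 to 34.8 CPM (median 22.5) in untreated EAE and 8.05 to 13.5 CPM (median 12.1) in naive brain (1.11 ± 0.15). The fallen members were Lama2, a laminin chain (-0.24), and Tnc, the matrix glycoprotein tenascin C (-0.43), and leaving out 1 library gave 0 to 2 fallen members, with fewer than 2 in 14 of the 17 cases. Fibroblast markers of the meninges did not follow, with 1 of 13 risen and 2 fallen.

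Proteases and coagulation genes rose in 10 of 25 tested members and fell in 3 (median 0.27). Mmp12, the macrophage elastase, and F10, coagulation factor X, had no count in any naive library, and were at 0.237 to 1.22 CPM (median 0.435) and 0.521 to 1.55 CPM (median 0.821) in untreated EAE. Plaur, the urokinase receptor, was at 1.4 to 2.06 CPM (median 1.86) in untreated EAE and 0.271 to 0.926 CPM (median 0.591) in naive brain and rose by 1.54 ± 0.29 (adjusted p = 0.00015). Fgl2, a membrane prothrombinase of macrophages and endothelium, rose by 1.79 ± 0.41, and F3, tissue factor, which astrocytes make, by 0.29 ± 0.07. Mmp15, a membrane-type metalloprotease, fell by 0.32 ± 0.07.

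Astrocyte genes changed in opposite directions. Of 23 genes of reactive astrocytes 17 rose and 1 fell (median 0.79), and of 22 genes of resting astrocytes 0 rose and 12 fell (median -0.21). Aspg, an asparaginase, and Tgm1, a transglutaminase, rose by 1.44 ± 0.26 and 3.03 ± 0.69, each without overlap. The fallen member was Nes, the intermediate filament nestin (-0.37 ± 0.12). Among resting genes, Gpc5, a glypican of astrocyte surfaces, was at 26.5 to 36.8 CPM (median 35) in untreated EAE and 38.3 to 46.3 CPM (median 42.7) in naive brain, below naive in every library (-0.33 ± 0.06, adjusted p = 0.000117). Slc6a11, the astrocytic GABA carrier GAT3, was at 239.8 to 364 CPM (median 303) in untreated EAE and 324 to 497 CPM (median 401) in naive brain (-0.45 ± 0.08). Acsbg1, a long-chain acyl-CoA synthetase, changed by -0.33 ± 0.07, and Mlc1, a membrane protein of perivascular end feet, by -0.25 ± 0.05. Of the resting genes above 100 CPM 9 of 16 fell (56.2%), against 31.9% of all genes at that level. Gjb6 encodes the gap junction protein connexin 30. It was at 66.1 to 87 CPM (median 70) in untreated EAE and 55.7 to 76 CPM (median 62.2) in naive brain. Gjb6 did not pass (0.22 ± 0.09, adjusted p = 0.0509). It passed as a rise with RLE scaling, without CT010467.1 and mitochondrial genes, with minimum count 30 and with 1 surrogate variable. It also passed as a rise by DESeq2, by limma-voom and with only the untreated and naive libraries. Of the resting genes 8 fell without the Sbp-holding libraries.

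Falls of myelin genes were near the share of all genes, and precursor genes fell more often. Of 21 myelin and oligodendrocyte genes 3 fell (14.3%, against 11.3%) and 0 rose (median -0.17). Above 100 CPM 1 of 9 fell (11.1%, against 31.9%). The count was 9 with 1 surrogate variable, 7 without the libraries low in cerebellar genes and 1 without those holding Sbp. Without untreated replicate 3, 6 or 7 there were 5 to 7. Gpr37, a receptor of maturing oligodendrocytes, was at 62.8 to 99.4 CPM (median 88.5) in untreated EAE and 92.6 to 118 CPM (median 99.2) in naive brain (-0.26 ± 0.09, adjusted p = 0.0252). Mog, the source of the immunizing peptide, was at 39 to 82.7 CPM (median 65.1) in untreated EAE and 71 to 92.4 CPM (median 76.7) in naive brain and did not pass (adjusted p = 0.0616), nor did Mag, an adhesion protein of myelin (adjusted p = 0.0568). Both passed as falls by limma-voom, with a replicate block, with 1 surrogate variable and without the libraries low in cerebellar genes. Mag also passed by DESeq2 and without the Sbp-holding libraries. Of 15 genes of precursors and early oligodendrocytes 5 fell (33.3%, against 11.3%), and above 100 CPM 2 of 4 fell (50%, against 31.9%). The 5 were Ptprz1 (-0.28 ± 0.06), a receptor phosphatase, Lhfpl3 (-0.27 ± 0.06), Sox10, the lineage transcription factor (-0.35 ± 0.09), Pdgfra, the receptor for the precursor mitogen PDGF-A (-0.26 ± 0.07), and Tnr, the matrix protein tenascin R (-0.18 ± 0.06). All 5 had overlapping groups.

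Changes of neuronal genes were falls. Across 9 lists of synapse, receptor, channel and neuronal subtype genes, 201 were tested, 56 fell (27.9%) and 0 rose, with a median of -0.15. Among those above 100 CPM, 35 of 114 fell (30.7%), a share near the 31.9% of all genes at that level. The high-rRNA farnesol libraries had 84 of these genes fallen and 2 risen. Single members rose in some other fits. With 1 surrogate variable, 1 gene rose in each of the synapse, glutamate receptor, sodium and calcium channel and pump, and cortical and hippocampal lists. In addition, 1 synapse gene rose without untreated replicate 7 and 1 potassium channel gene under 6 alternatives. From the cortical and hippocampal list 1 gene rose without the libraries low in cerebellar genes, and in at least 1 fit with a single library left out. Synapse genes fell most often, 17 of 30, and 16 of 29 above 100 CPM (55.2%). Shank1, a scaffold of the postsynaptic density, was at 395 to 702 CPM (median 502) in untreated EAE and 605 to 706 CPM (median 683) in naive brain (-0.39 ± 0.09). Nlgn1 and Nrxn3, adhesion proteins that face each other across the synapse, changed by -0.33 ± 0.07 and -0.28 ± 0.05, and Sv2a, a protein of synaptic vesicles, by -0.21 ± 0.04. The groups overlapped for each of these genes.

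Receptors and channels fell in smaller shares than synapse genes. Above 100 CPM, where 31.9% of all genes fell, the falls were 5 of 11 inhibitory receptor genes (45.5%), 2 of 13 glutamate receptor genes (15.4%), 3 of 18 potassium channel genes (16.7%), 4 of 20 sodium and calcium channel and pump genes (20%) and 2 of 8 interneuron genes (25%). At any level, of 19 inhibitory receptor genes 7 fell (median -0.19), with Gabra2 and Gabrg1, GABA-A receptor subunits, at -0.38 ± 0.08 and -0.40 ± 0.08. Of 22 glutamate receptor genes 5 fell, with Grin2b, an NMDA receptor subunit, at -0.36 ± 0.10 and Grm3, a metabotropic receptor also held by astrocytes, at -0.35 ± 0.07. Of 33 potassium channel genes 10 fell; Kcna4, an A-type channel of axons, was at 15.5 to 24.5 CPM (median 20.7) in untreated EAE and 23.4 to 35.4 CPM (median 27.4) in naive brain (-0.47 ± 0.10, adjusted p = 0.000501). Kcna4 also passed with the term for library composition (-0.67, adjusted p = 0.037). Of 25 sodium and calcium channel and pump genes 5 fell, and 11 fell without the Sbp-holding libraries, with 2 to 9 when single libraries were left out (naive replicates 1, 5 and 7 and untreated replicates 1 and 9 moved it most). Atp1b1, the main beta subunit of the sodium pump, was at 1342 to 1549.8 CPM (median 1486) in untreated EAE and 1553 to 1629.7 CPM (median 1603) in naive brain, a change of only -0.12 ± 0.03 in which all untreated libraries lay below all naive ones. Of 20 interneuron genes 4 fell (9 without untreated replicate 2), among them Slc32a1, the vesicular carrier of GABA (-0.25 ± 0.05). It was at 128 to 145 CPM (median 136) in untreated EAE and 148 to 185 CPM (median 159) in naive brain, without overlap.

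Axonal genes fell in 7 of 23 cases and rose in 1. Nmnat2, the enzyme whose loss starts axon degeneration, changed by -0.12 ± 0.04, and the microtubule proteins Map1b and Map1a by -0.24 ± 0.06 and -0.20 ± 0.06. Sptbn4, the spectrin of axon initial segments and nodes, rose by 0.37 ± 0.08 and was the only riser. The share of falls among those above 100 CPM was 7 of 19 (36.8%), near the 31.9% of all genes at that level. Without the Sbp-holding libraries neither Nmnat2 (-0.11, adjusted p = 0.109) nor Sptbn4 (0.19, adjusted p = 0.0902) passed. Without naive replicate 3 or 7 or untreated replicate 7 or 9, 4 axonal genes fell.

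Markers of brain regions were compared because the dissected tissue can differ between libraries. Olfactory bulb genes had the lowest median of the regional lists (-0.67), with 7 of 12 fallen. S100a5, a calcium-binding protein of olfactory sensory neurons, was at 0 to 0.802 CPM (median 0) in untreated EAE and 0.0545 to 3.65 CPM (median 2.4) in naive brain and Cdhr1, a cadherin of mitral cells, at 4.6 to 27.4 CPM (median 9.44) in untreated EAE and 8.77 to 46.9 CPM (median 30.1) in naive brain. The groups overlapped in both, and the falls were -3.18 ± 0.82 and -1.37 ± 0.38. S100a5 did not pass by DESeq2 (adjusted p = 0.0643) or without the Sbp-holding libraries (adjusted p = 0.0577). Sp8, a transcription factor of bulb interneurons, changed by -1.22 ± 0.36, and Th, tyrosine hydroxylase of dopaminergic neurons, by -0.53 ± 0.13. Of 10 genes of the olfactory sensory neurons, whose cell bodies lie in the nose, 4 fell, with Stoml3 at -1.44 ± 0.30 and Gfy at -1.09 ± 0.40. Gfy did not pass by limma-voom (-0.38, adjusted p = 0.532), with a replicate block (-0.71, adjusted p = 0.19) or with no filter. Nor did it pass without the Sbp-holding libraries or without those low in cerebellar genes. Without the Sbp-holding libraries 3 of the bulb genes and 2 of the epithelial genes fell, and in the high-rRNA farnesol libraries 11 and 4 fell. Leaving out naive replicate 2, 3 or 4 or untreated replicate 4, 5, 6, 7 or 9 left 2 fallen epithelial genes. How the bulb was dissected is not given, and its part in these falls was not tested.

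Lists of other regions held from 0% to 22.2% fallen members, against 11.3% of all genes. In the cerebellum list 0 of 16 rose and 0 fell (median 0.00), in the ependyma list 0 of 10 rose and 0 fell, and in the choroid plexus list 2 of 12 fell, Prlr, the prolactin receptor (-0.53 ± 0.16), and Aqp1, the water channel of its apical membrane (-0.50 ± 0.16). Cortical and hippocampal genes fell in 4 of 18 cases (22.2%), and in 2 without untreated replicate 4 or naive replicate 4. Above 100 CPM 2 of 7 fell (28.6%, against 31.9% of all genes at that level). Rorb, which marks layer 4 neurons, was at 24.6 to 40 CPM (median 33.5) in untreated EAE and 39.5 to 54.7 CPM (median 50.6) in naive brain (-0.54 ± 0.08, adjusted p = 1.22e-05) and passed with the term for library composition (-0.67). Penk, the enkephalin precursor of striatal neurons, fell by 0.46 ± 0.15. Pomc, the precursor of pituitary and hypothalamic peptides, was at 1.03 to 350.3 CPM (median 1.56) in untreated EAE and 1.58 to 8.21 CPM (median 3.35) in naive brain and rose by 3.40 ± 1.02 (adjusted p = 0.0128), and Gh, growth hormone, was at 0 to 872 CPM (median 1.5) in untreated EAE and 0 to 63.5 CPM (median 6.35) in naive brain. Both peaks were in untreated replicate 3, which was also low in cerebellar genes, and without it Pomc was at -0.68 (adjusted p = 0.496).

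**Figure D4:**
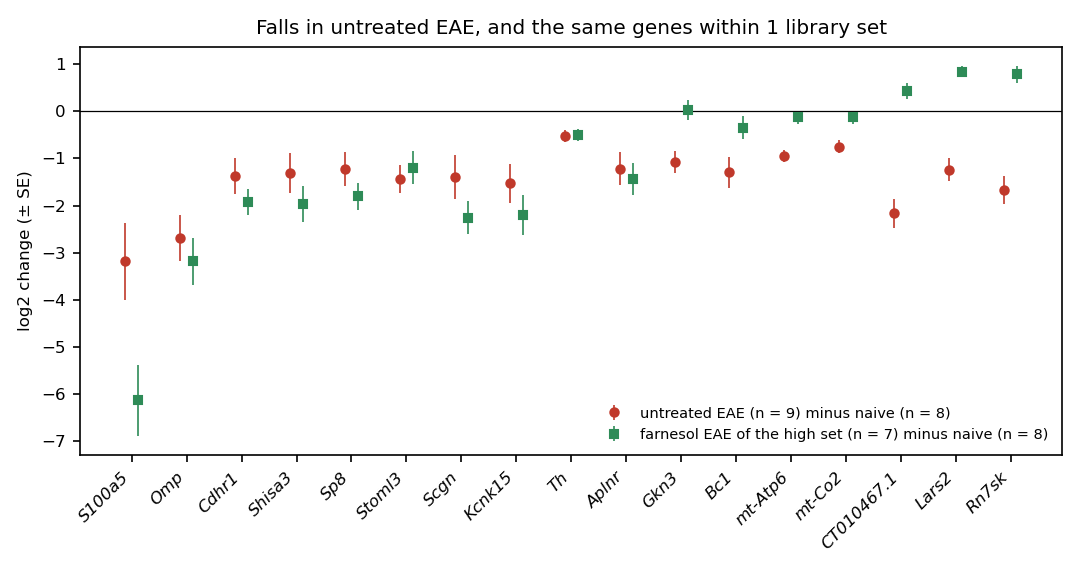
Points are log2 changes with their SE, for untreated EAE (n = 9) against naive brain (red circles) and for the 7 high-rRNA farnesol libraries against the same naive libraries (green squares). The olfactory genes S100a5, Omp, Cdhr1, Shisa3, Sp8 and Stoml3 lie below 0 in both, while Lars2 and Rn7sk lie below 0 in the first and above it in the second; CT010467.1 is the gene by which the 7 libraries were chosen, so its place there was set by the choice.

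Sterol synthesis had the highest share of fallen members of the 63 lists. Of 24 genes 18 fell and 0 rose (75.0% fallen, median -0.29), and 7 had groups that did not overlap. The list's mean log2 level was 5.22 to 5.35 in untreated and 5.45 to 5.6 in naive libraries. Insig1, which holds the sterol sensor in the endoplasmic reticulum, was at 63.4 to 85.8 CPM (median 73.4) in untreated EAE and 91 to 112 CPM (median 100.3) in naive brain (-0.44 ± 0.08, adjusted p = 7.86e-05). It lay below naive in every untreated library. Cyp51, lanosterol demethylase, changed by -0.36 ± 0.06, and Hsd17b7, a later reductase of the pathway, by -0.28 ± 0.05. Among high-rRNA farnesol libraries 17 fell and 2 rose. With the term for library composition 0 passed (median -0.09).

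Of the 12 fallen sterol genes with a promoter in the table, 1 held the sterol response motif TCACNCCAC on either strand (8.33%), against 330 of 27025 promoters (1.22%). It is Hmgcs1, the HMG-CoA synthase of the pathway, which was at 159 to 192 CPM (median 178) in untreated EAE and 206 to 243 CPM (median 229.9) in naive brain (-0.35 ± 0.06); capitals mark the match.
Hmgcs1, chr13:119690174-119690262, plus strand: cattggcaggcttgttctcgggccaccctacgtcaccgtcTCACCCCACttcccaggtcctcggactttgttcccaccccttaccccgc
Neighbouring lipid pathways moved differently. Fatty acid and sphingolipid synthesis fell in 8 of 19 cases, with the desaturases Scd1 and Scd2 at -0.32 ± 0.07 and -0.26 ± 0.05 and Degs1, which makes ceramide, at -0.20 ± 0.05. In cholesterol efflux and its regulators 4 of 16 rose, led by Ch25h, with Abca7, a lipid exporter (0.40 ± 0.10), Nr1h2, the liver X receptor beta (0.14 ± 0.05), and Mylip, a ubiquitin ligase (0.25 ± 0.09). Npc1, the lysosomal cholesterol exporter, fell by 0.22 ± 0.05. Prostaglandin and leukotriene genes rose in 6 of 19 cases, with Ptgs2, cyclooxygenase 2, at 12.3 to 23.7 CPM (median 17.2) in untreated EAE and 7.65 to 11.5 CPM (median 9.37) in naive brain (0.90 ± 0.15). Alox5ap, the partner of 5-lipoxygenase, rose by 0.97 ± 0.25.

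Respiratory chain genes fell in both genomes. Of 88 genes tested 33 fell (37.5%) and 0 rose, with a median of -0.14, and above 100 CPM 20 of 37 fell (54.1%, against 31.9%). Of 13 mitochondrially encoded genes 9 fell (median -0.31), and their share of counts was 4.43% ± 0.502 (SD, n = 9) against 5.07% ± 0.448 (SD, n = 8; two-sided exact permutation test, p = 0.0159, adjusted p = 0.0254). The adjusted p was 0.344 without the Sbp-holding libraries, and 0.0510, 0.0536 and 0.0509 without untreated replicate 4, naive replicate 3 or naive replicate 5. mt-Co2, a cytochrome oxidase subunit, was at 21.5 to 41.5 CPM (median 24) in untreated EAE and 39.4 to 51.8 CPM (median 43.5) in naive brain (-0.75 ± 0.14); its reads may be shared with nuclear copies. In the nuclear genome 24 of 75 fell. Ndufs1, the largest complex I subunit, was at 118 to 139.7 CPM (median 131) in untreated EAE and 141 to 156 CPM (median 147) in naive brain (-0.20 ± 0.04) and Ndufa10 at 125 to 140.3 CPM (median 132) in untreated EAE and 143 to 156 CPM (median 148) in naive brain (-0.18 ± 0.04), both without overlap. Cs, citrate synthase, which opens the citric acid cycle (chr10:128337734-128362479, plus strand), was at 241 to 274 CPM (median 263) in untreated EAE and 287 to 311 CPM (median 300.2) in naive brain, one of the falls of smallest p (-0.21 ± 0.03, adjusted p = 1.76e-06), and passed with the term for library composition (-0.19, adjusted p = 0.0485). Without the Sbp-holding libraries 14 nuclear and 4 mitochondrial genes fell.

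Glycolytic genes changed in both directions. Of 21 genes 11 fell and 4 rose. Above 100 CPM 11 of 15 fell (73.3%, against 31.9%). The fallen genes were steps of the trunk, such as Pgk1, phosphoglycerate kinase (-0.18 ± 0.04), Eno1, enolase 1 (-0.19 ± 0.05), Pgam1, phosphoglycerate mutase (-0.17 ± 0.04), and Ldhb, the lactate dehydrogenase subunit of oxidative cells (-0.16 ± 0.04). Pgk1 was at 311 to 383 CPM (median 368) in untreated EAE and 388 to 426 CPM (median 416) in naive brain, without overlap. The risen genes were Hk2 (0.77 ± 0.22) and Hk3 (1.51 ± 0.38), hexokinases, Pfkfb3, which makes the activator of phosphofructokinase (0.44 ± 0.07), and Slc16a3, the lactate exporter MCT4 (0.62 ± 0.16). Pfkfb3 was at 50.5 to 62.5 CPM (median 56.4) in untreated EAE and 36.9 to 45.1 CPM (median 40.7) in naive brain, above naive in every library. Of 14 reference genes 5 fell (35.7%) and 1 rose, and above 100 CPM 5 of 9 fell (55.6%, against 31.9%). Gapdh changed by -0.16 ± 0.04 and Ppia by -0.14 ± 0.05. Without the Sbp-holding libraries 2 reference genes fell, and neither Gapdh (adjusted p = 0.0545) nor Ppia (adjusted p = 0.254) passed. Gusb, a lysosomal glucuronidase also used as a reference, rose by 0.39 ± 0.13.

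Of 17 genes of iron and metal handling 5 rose and 2 fell. Cp, the ferroxidase ceruloplasmin, was at 25.3 to 54 CPM (median 44.4) in untreated EAE and 17.6 to 22.5 CPM (median 18.7) in naive brain (1.19 ± 0.15, adjusted p = 4.34e-07). Hp, haptoglobin, which binds free haemoglobin, was at 0.773 to 4.41 CPM (median 3.06) in untreated EAE and 0.0545 to 0.964 CPM (median 0.474) in naive brain, and Slc11a1, the phagosomal metal carrier NRAMP1, rose by 2.07 ± 0.40. Slc40a1, ferroportin, the cellular iron exporter, was at 6.68 to 11.7 CPM (median 8.05) in untreated EAE and 12.6 to 15 CPM (median 13.2) in naive brain, below naive in every library (-0.59 ± 0.10, adjusted p = 4.08e-05). Aco1, whose apoprotein is the iron regulatory protein IRP1, fell by 0.30 ± 0.04, also without overlap. Haemoglobin genes, which mark residual blood, did not pass. Hba-a1, an alpha chain with a near-identical copy, was at 37.1 to 185 CPM (median 75.8) in untreated EAE and 78 to 179 CPM (median 124) in naive brain, and red cell genes held 0.0246% ± 0.0141 of counts (SD, n = 9) against 0.0295% ± 0.00751 (SD, n = 8; exact permutation adjusted p = 0.467). Of 20 antioxidant genes under NRF2 6 fell and 0 rose (2 and 2 without the Sbp-holding libraries, and 3 fallen without naive replicate 3), with Sod2, the mitochondrial superoxide dismutase, at 174 to 204 CPM (median 191) in untreated EAE and 224 to 232 CPM (median 228) in naive brain (-0.26 ± 0.04).

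Hormonal and protein folding stress genes changed mostly upward. Of 20 genes induced by or encoding glucocorticoid receptors 14 rose and 2 fell (median 0.47), but without the Sbp-holding libraries 4 rose and 1 fell (median 0.26). Map3k6, a stress kinase, was at 4.27 to 13.8 CPM (median 8.31) in untreated EAE and 3.19 to 4.51 CPM (median 3.88) in naive brain (1.20 ± 0.21), Arrdc2, an arrestin-like protein, at 10.4 to 29.7 CPM (median 19.8) in untreated EAE and 8.89 to 11.4 CPM (median 9.78) in naive brain (1.05 ± 0.20), and Cdkn1a, the cell cycle inhibitor p21, rose by 0.86 ± 0.16. The groups overlapped for the first 2. The fallen members were the receptors themselves, Nr3c1 (-0.27 ± 0.06) and Nr3c2 (-0.23 ± 0.06).

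Chaperones of the endoplasmic reticulum, which rise when unfolded protein gathers there, were the second list. Of 25 members 12 rose and 2 fell (median 0.17), and the list's mean log2 level was 5.98 to 6.16 in untreated, 5.83 to 5.95 in naive and 5.8 to 6.1 in vehicle libraries. Creld2, a secreted isomerase-like protein, was at 17.6 to 21.2 CPM (median 19.8) in untreated EAE and 11.7 to 15.5 CPM (median 13.1) in naive brain, and Sdf2l1, a cofactor of the chaperone BiP, at 14.3 to 20.7 CPM (median 18.2) in untreated EAE and 9.13 to 11.8 CPM (median 9.99) in naive brain. Both were above naive in every untreated library (0.55 ± 0.09 and 0.79 ± 0.13). Xbp1, the transcription factor spliced in the stress response, rose by 0.46 ± 0.08. Asns, asparagine synthetase of the ATF4 branch, changed by -0.23 ± 0.04, and Canx, the chaperone calnexin, by -0.14 ± 0.04. Canx did not pass without the Sbp-holding libraries (-0.10, adjusted p = 0.198) or with no count filter (adjusted p = 0.0508). In the high-rRNA farnesol libraries 1 member rose and 5 fell (median -0.08), and Creld2 there was at 0.05 (adjusted p = 0.727) and Sdf2l1 at 0.03 (adjusted p = 0.865). Against vehicle, Creld2 differed by 0.33 (adjusted p = 0.187).

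The endoplasmic reticulum stress element, CCAAT and CCACG with 9 bases between them, stood in the promoters of 6 of the 13 changed members with a promoter in the table (46.2%), and in 35 of all 27025 promoters (0.13%), on either strand. Their windows are shown because 5 of these genes rose and 1, Canx, fell with the same element; capitals mark it, and in Creld2 it lies on the opposite strand.
Hspa5, chr2:34771985-34772083, plus strand: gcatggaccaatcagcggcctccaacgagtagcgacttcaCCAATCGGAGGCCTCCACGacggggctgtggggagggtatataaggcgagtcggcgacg
Creld2, chr15:88819480-88819578, plus strand: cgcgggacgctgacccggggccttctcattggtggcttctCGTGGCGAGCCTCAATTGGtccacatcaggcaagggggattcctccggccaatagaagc
Pdia6, chr12:17266451-17266549, plus strand: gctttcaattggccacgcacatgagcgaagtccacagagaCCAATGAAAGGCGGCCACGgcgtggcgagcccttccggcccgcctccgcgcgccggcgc
Dnajc3, chr14:118937787-118937885, plus strand: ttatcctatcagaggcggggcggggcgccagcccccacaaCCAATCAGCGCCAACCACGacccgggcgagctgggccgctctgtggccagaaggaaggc
Syvn1, chr19:6046492-6046575, plus strand: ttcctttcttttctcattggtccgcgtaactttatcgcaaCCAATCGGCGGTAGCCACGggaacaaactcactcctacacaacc
Canx, chr11:50325760-50325858, minus strand: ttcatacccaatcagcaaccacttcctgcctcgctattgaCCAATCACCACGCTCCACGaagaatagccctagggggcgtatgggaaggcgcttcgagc
Hspa5, the chaperone BiP itself, was at 339 to 428 CPM (median 380.1) in untreated EAE and 247 to 292 CPM (median 277) in naive brain (0.48 ± 0.08). Pdia6, a protein disulfide isomerase, rose by 0.29 ± 0.06, Dnajc3, an inhibitor of the kinase PERK, by 0.26 ± 0.06, and Syvn1, the ubiquitin ligase of misfolded protein, by 0.18 ± 0.05.

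**Figure D5:**
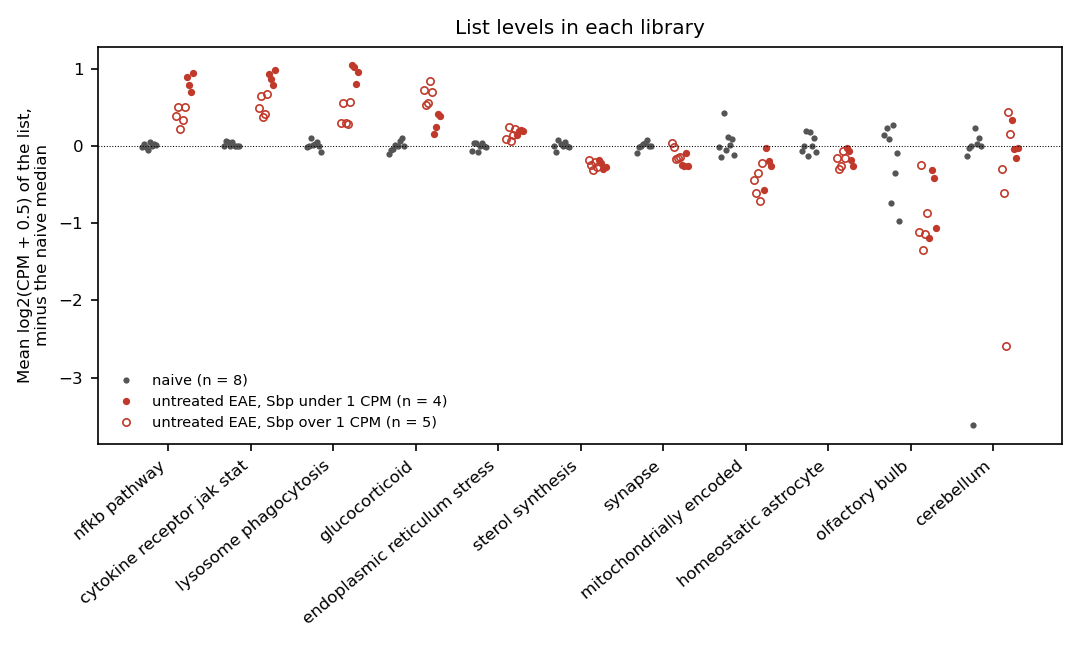
Points are the mean log2(CPM + 0.5) of a list in 1 library, minus the naive median: grey naive (n = 8), filled red untreated EAE with Sbp under 1 CPM (n = 4), open red untreated EAE with Sbp over 1 CPM (n = 5). Sterol synthesis is below and endoplasmic reticulum stress above the naive range in every untreated library, and 1 library of each group is low in the cerebellum list.

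Cytosolic heat shock and clock genes changed at about the share of all genes (24.9%), with 5 of 20 and 4 of 17, and immediate early genes in 3 of 20. Heat shock rose in 3 of 20 cases and fell in 2, with Hspa1b, an inducible chaperone with a near-identical neighbour, at 9.26 to 17.5 CPM (median 11.2) in untreated EAE and 6.43 to 8.51 CPM (median 7.29) in naive brain (0.64 ± 0.13) and Hsf1, its transcription factor, at 0.35 ± 0.06. Hsp90aa1 and Hsp90ab1, the cytosolic HSP90 genes, changed by -0.13 ± 0.04 and -0.10 ± 0.04. Neither passed without the Sbp-holding libraries, Hsp90aa1 did not pass without untreated replicate 9, and Hsp90ab1 did not pass with RLE scaling or without 1 library in 13 of 17 cases. In the high-rRNA farnesol libraries 12 of 20 heat shock genes fell, and 16 of 20 immediate early genes, where untreated EAE had 1 fallen (Jun, -0.22 ± 0.05) and 2 risen, Egr3 (0.51 ± 0.15) and Homer1 (0.43 ± 0.14). Both rises were lost without the Sbp-holding libraries, with Egr3 at 0.33 (adjusted p = 0.238) and Homer1 at 0.29 (adjusted p = 0.262). Among clock genes Per2 was at 41.8 to 55.6 CPM (median 45.3) in untreated EAE and 25.1 to 34.4 CPM (median 32.5) in naive brain and rose without overlap (0.60 ± 0.10); Per3 rose by 0.37 ± 0.07, and the clock-controlled transcription factors Nr1d1 and Dbp changed by -0.49 ± 0.07 and -0.42 ± 0.09. The time of day of sampling is not given in the sources used here, and its part was not tested.

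Proliferation genes rose in 3 of 24 cases (12.5%, near the 13.6% of all genes), and in 5 without the Sbp-holding libraries. The risen genes were Ccna2 (0.82 ± 0.21), Ccnb2 (1.01 ± 0.26) and Mki67 (0.97 ± 0.26). Mki67, the marker of cycling cells, was at 2.32 to 4.85 CPM (median 3.44) in untreated EAE and 1.14 to 2.36 CPM (median 1.91) in naive brain. Cdk1 did not pass (adjusted p = 0.0898). Among growth factor genes, Tgfbi, a matrix protein induced by TGF-beta, rose by 1.06 ± 0.33, Tgfbr2, the TGF-beta receptor, by 0.53 ± 0.14, and Igfbp7, a vascular binding protein of insulin-like growth factors, by 0.66 ± 0.10. In amino acid metabolism Acod1, the itaconate synthase of activated macrophages, was at 0.21 to 3.34 CPM (median 1.25) in untreated EAE and 0 to 0.433 CPM (median 0.0775) in naive brain, and Kmo, which turns kynurenine toward neuroactive products in microglia, at 0.483 to 1.56 CPM (median 0.737) in untreated EAE and 0.138 to 0.821 CPM (median 0.448) in naive brain (1.00 ± 0.30). Sat1, which acetylates polyamines, rose by 0.67 ± 0.15. Fasting genes under PPAR alpha moved in both directions (4 risen and 7 fallen of 22, with 4 fallen without naive replicate 2, 3, 5 or 7 or untreated replicate 1, 3, 5 or 9), with Ppara itself at 1.28 to 2.75 CPM (median 2.01) in untreated EAE and 2.17 to 3.41 CPM (median 3.01) in naive brain (-0.53 ± 0.14) and Cpt1a, the gate to mitochondrial fatty acid oxidation, at -0.26 ± 0.07.

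Long noncoding RNAs of the nucleus rose in 8 of 14 cases and fell in 1 (median 0.30). Neat1, the scaffold of paraspeckles, was at 79 to 216 CPM (median 111) in untreated EAE and 46.4 to 64.3 CPM (median 53.2) in naive brain (1.26 ± 0.20, adjusted p = 1.56e-05). Meg3, an imprinted neuronal RNA, was at 1492 to 3887 CPM (median 2312) in untreated EAE and 1256 to 1997 CPM (median 1404) in naive brain (0.79 ± 0.14), and Miat and Snhg11, also neuronal, rose by 0.85 ± 0.15 and 0.85 ± 0.12. Long noncoding RNAs held 1.39% ± 0.168 of counts (SD, n = 9) against 1.17% ± 0.068 (SD, n = 8; two-sided exact permutation test, adjusted p = 0.00666, and 0.0646 without the Sbp-holding libraries). Of these RNAs 11 of 14 rose in the high-rRNA farnesol libraries.

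The falls of Lars2 and Rn7sk had the opposite sign in the high-rRNA farnesol libraries. Lars2, a mitochondrial leucyl-tRNA synthetase, was at 126 to 233 CPM (median 149) in untreated EAE and 361 to 479 CPM (median 379.9) in naive brain (-1.24 ± 0.24) and Rn7sk, the small nuclear RNA that restrains transcription elongation, at 1.15 to 3.81 CPM (median 2.4) in untreated EAE and 6.34 to 10.6 CPM (median 7.37) in naive brain (-1.67 ± 0.29), with every untreated library below every naive one. CT010467.1, by which those libraries were chosen, fell by 2.16 ± 0.31 in untreated EAE. In the high-rRNA farnesol libraries Lars2 was at 0.84 (adjusted p = 1.26e-05) and Rn7sk at 0.79 (adjusted p = 0.00207). Of ribosomal protein genes 1 of 79 rose and 3 fell, and their share of counts was 1.18% ± 0.118 (SD, n = 9) against 1.16% ± 0.0687 (SD, n = 8; exact permutation adjusted p = 0.652).

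Few genes differed between mice with EAE that were and were not gavaged. Untreated and vehicle-gavaged EAE differed in 4 of 18438 genes (0.0217%), each higher in untreated mice: Kcnip3, a calcium-binding potassium channel partner (0.28), Synj2, a phosphoinositide phosphatase (0.30), Fmnl1, a formin of white blood cells (0.34), and Ier5, an early response gene (0.43), each at adjusted p = 0.0391. Of the 216 genes named here that were tested, 31 had an unadjusted p below 0.05 against vehicle. With only the untreated and vehicle libraries in the fit, 1 of the named genes passed. A p that misses the threshold does not show that the 2 groups are alike.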

How the data were processed

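Whole-brain RNA was sequenced in 36 libraries, and the authors deposited 1 table of raw read counts per gene, with 54532 Ensembl identifiers and 1 column per library. Reads were mapped with STAR 2.5 to mm10, per the submitters' processing notes; the extraction protocol also names Kallisto. The sources used here do not say which counter or annotation release was used, or whether strand was, so overlapping and antisense genes cannot be told apart. Symbols and coordinates came from GENCODE M21 (GRCm38), which named 54495 identifiers with 99.99% of the deposited counts, and promoters from RefSeq (GRCm38.p6, 27025 used).

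Genes were kept by filterByExpr (minimum count 10, total 15), scaled by TMM and tested with edgeR 4.0.16 (R 4.3.3) on all 36 libraries, with 1 mean per group and 2-sided quasi-likelihood tests, called at an adjusted p below 0.05; standard errors are the change divided by the square root of F. The script was tested on simulated data. Shares of counts were compared by exact permutation tests. Promoter motifs and list counts are descriptions. The labels do not say that replicates came from separate animals, so p-values measure only the spread between these libraries. Replicate libraries of a group differed beyond counting noise (chi-square per gene at least 4.2).

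Named genes were the 15 largest rises and falls with at least 1 CPM in either group, the 10 rises and falls of smallest p and of largest change in CPM, and up to 6 of smallest p in each list, leaving out predicted loci; the other genes named (25 of 216), mostly sole members against a list's direction, motif holders and genes differing from vehicle, were chosen after their values were seen. The members and the 63 lists were chosen with earlier results of these data known. Alternatives were RLE scaling, other filters, DESeq2 1.42.0, limma-voom 3.58.1, sva 3.50.0, a replicate block, a library composition term and sets of libraries left out.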

Additional observations from a re-analysis of the deposited data

Results flagged for a closer look

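In each group, the highest and the lowest library were compared with the spread of the others by Dixon's criterion at the 95% level, for the 216 genes named and the 8 shares of counts. Of 448 groups examined 29 held such a library, and chance gives about 1 in 20. Naive replicate 4 stood far below the others in Abca7 (23.6 CPM against 33.9 to 39.9), Cldn5 (40.9 CPM against 47.9 to 51.7), Tnc (6.82 CPM against 10.9 to 12.7) and stood far above the others in Col4a2 (46.5 CPM against 39.1 to 41.5), Meg3 (1997 CPM against 1256 to 1526), Miat (222 CPM against 105 to 142), Nlgn1 (77.5 CPM against 60.6 to 67.1). Naive replicate 1 stood far below the others in Slco1c1 (49.1 CPM against 59.1 to 67.3) and stood far above the others in Sat1 (37.7 CPM against 27.5 to 31.4), the pseudogene share of counts (0.148% against 0.136% to 0.141%). Untreated replicate 1 stood far below the others in Ppia (487 CPM against 588 to 687) and stood far above the others in Map1a (1545 CPM against 1096 to 1224), Map1b (1166 CPM against 868 to 977). Untreated replicate 3 stood far below the others in Ptprz1 (194 CPM against 236 to 287) and stood far above the others in Gh (872 CPM against 0 to 2.07), Pomc (350.3 CPM against 1.03 to 5.01). Naive replicate 5 stood far below the others in Nfkbiz (3.63 CPM against 4.37 to 5.04) and stood far above the others in Cp (22.5 CPM against 17.6 to 19.3). Untreated replicate 2 stood far below the others in Esam (16 CPM against 20.2 to 21.5) and stood far above the others in Hspa1b (17.5 CPM against 9.26 to 12.5). Untreated replicate 4 stood far below the others in Rorb (24.6 CPM against 31.4 to 40) and stood far above the others in Prlr (17.7 CPM against 8.6 to 11.7). Untreated replicate 7 stood far above the others in the mitochondrially encoded share of counts (5.62% against 3.9% to 4.66%), the erythroid share of counts (0.0561% against 0.00934% to 0.0307%). Untreated replicate 9 stood far below the others in Gpc5 (26.5 CPM against 31.2 to 36.8), Hsd17b7 (21.7 CPM against 24.7 to 26.9). Naive replicate 6 stood far below the others in Ccnb2 (0.435 CPM against 0.65 to 0.827). Untreated replicate 5 stood far below the others in Bc1 (0 CPM against 0.531 to 1.1). Untreated replicate 6 stood far above the others in Cdk1 (2.36 CPM against 0.338 to 1.03).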

How the results depend on the processing

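Of the 216 genes named, 203 passed the threshold, 178 of them when any 1 library was left out, and 153 under every alternative other than the term for library composition. The count of changed genes was 4482 with RLE scaling, 4507 without CT010467.1 and mitochondrial genes, 3838 with no filter, 4242 with minimum count 30, 4684 by DESeq2, 5290 by limma-voom, 4050 with only untreated and naive libraries, 4304 with a replicate block, 5180 with 1 surrogate variable, 3615 without the Sbp-holding libraries and 4234 without those low in cerebellar genes; scalings moved the median of all genes by less than 0.1. With no filter, 1398 genes fell and 2440 rose.

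With the term for library composition 175 genes passed, 100 risen and 75 fallen. Of the named genes 174 no longer passed, 7 were reversed and 35 kept their side of the threshold. The 35 include genes that passed in neither fit. In the sections above, values of single genes with this term were given mainly where the gene still passed. Among those that no longer passed, Insig1 was at -0.04, Acsbg1 at -0.04, Csf1r at 0.06 and Tmem119 at 0.00. The reversed genes follow. CT010467.1 was then at 0.31, Lars2 at 0.57, Rn7sk at 0.27, Tnc at 0.33, Egr3 at -0.13, Homer1 at -0.10 and Nmnat2 at 0.00; the cause was not tested. Pomc was at -0.63 by DESeq2, -0.11 by limma-voom, -1.07 without the Sbp-holding libraries and -0.59 without those low in cerebellar genes, and from -0.68 to 3.66 when 1 library was left out.

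With CT010467.1 out of the total, the protein-coding share differed by -0.183 percentage points in place of 0.421, since that gene takes a share of the total. Without the Sbp-holding libraries the differences were -0.35 (mitochondrial), 0.152 (long noncoding) and 0.0129 (pseudogene) percentage points. Leaving out 1 library at a time gave 3688 to 4667 changed, 2126 to 2548 risen and 1562 to 2142 fallen genes. The same ranges for shares, in percentage points, were -1.83 to -1.59 (100 most abundant genes), -0.631 to -0.586 (ribosomal RNA gene), -0.789 to -0.527 (mitochondrial), 0.177 to 0.239 (long noncoding), 0.38 to 0.483 (protein-coding), 0.00455 to 0.00878 (pseudogene), -0.00881 to -0.00296 (erythroid) and -0.00345 to 0.0441 (ribosomal protein). Of the named genes, 4 passed against vehicle and 1 with only those libraries in the fit. Replicate numbers only name libraries: the correlation of deviations of same-numbered libraries was -0.189 to 0.074, and with the replicate block 6 named genes no longer passed. Low counts limit genes below 1 CPM, where chance counts are a large part of each value.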

Other observations

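Gene lists of neuron classes outside the cortex were also counted, against 11.3% fallen and 13.6% risen over all genes. Of 16 tested hypothalamic neuropeptide genes 3 fell (18.8%) and 1 rose, Pomc, as given above. The fallen genes were Scg2, a granin of secretory granules (-0.29 ± 0.05), Adcyap1, the precursor of PACAP (-0.30 ± 0.07), and Trh, thyrotropin-releasing hormone (-0.75 ± 0.27). Trh was at 1.61 to 12.2 CPM (median 5.31) in untreated EAE and 6.92 to 11.6 CPM (median 9.24) in naive brain. Of 20 genes of monoamine and acetylcholine neurons 2 fell (10%), Th and Chrna4, a nicotinic receptor subunit (-0.29 ± 0.07). Of 14 striatal genes 2 fell (14.3%), Penk and Foxp1, a transcription factor of projection neurons (-0.22 ± 0.07). Among 9 thalamic genes 2 fell (22.2%), Ramp3, a partner of the calcitonin receptor-like receptor (-0.28 ± 0.10), and Gbx2 (-0.53 ± 0.20). The thalamic count was 0 without the Sbp-holding libraries. Leaving out 1 library gave 0 to 3, with 0 without naive replicate 8 or untreated replicate 1 or 2, and 3 without untreated replicate 4. For striatal genes it gave 1 to 3, with 1 without naive replicate 4 or untreated replicate 4, 6 or 9. For monoamine and acetylcholine genes it gave 2 to 4, with 4 without untreated replicate 3, and for hypothalamic genes 2 to 4.

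Other promoter motifs were found in changed members at shares given here as values. GAAANNGAA, a core of interferon response elements, stood in 2 of 12 risen or fallen class I presentation genes (16.7%) and in 5 of 22 cytokine receptor and STAT genes (22.7%), against 8.57% of all promoters. ACANNNTGT, the spaced core of a glucocorticoid response element, stood in 1 of 13 changed glucocorticoid genes (7.69%, against 6.90%), and TGACNNNGC, the core of the antioxidant response element, in 1 of 5 changed NRF2 genes (20%, against 12.5%). TTCNNNGAA, the core bound by STAT factors, stood in 4 of 13 of the largest rises (30.8%, against 8.47%), those of Lilr4b, Sbp, Sele and Serpina3f, and TTGCGCAA, a C/EBP site, in 0 of 13 (against 0.185%).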
